A study of Mus musculus with 26 samples.

Results

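The effect of tumor necrosis factor (TNF) after 72 h was read from 5 of the 26 arrays of a differentiation time course of mouse neurospheres (NSPs). The TNF 72 h group holds 2 arrays and the untreated 72 h group holds 3, and they were compared unpaired over all 23410 probe sets that carry a gene symbol, out of 35556 on the Affymetrix array. NSPs are floating clusters grown from neural stem cells, here of the ventricular zone of C57BL/6J mouse embryos at day 14. In both groups they were plated on poly-L-ornithine in medium with fetal bovine serum, which turns them towards astrocytes. TNF was added at 50 ng/mL at time 0 and the cells were taken 72 h later, while untreated cells had the same serum and no TNF. The serum is thus shared by both groups, and the cultures are mixed, with no sorting of cells. The series describes its replicates as biological.

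TNF is a cytokine that binds receptors on the cell surface and signals through the adaptor TRAF2 and the IKK kinases. IKK marks the IκB inhibitors for destruction, which frees the transcription factor NF-κB to enter the nucleus and bind κB sites in promoters. Many of its targets are its own inhibitors (IκBα, IκBε, A20), and others are chemokines, adhesion receptors and acute phase proteins. Astrocytes respond to such signals by becoming reactive, a state known for genes such as *Lcn2* and for antigen presentation.

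In total, 184 probe sets (0.786%) were higher and 177 (0.756%) were lower in TNF-treated than in untreated cells at 72 h, at a q-value under 0.05. The q-value is the expected share of false calls when a probe set is called, and comes from limma's test over all probe sets. With 1 probe set kept per gene, the one of highest mean signal, there were 174 of 19938 genes higher (0.873%) and 131 lower (0.657%) with TNF. The genes that were higher with TNF held inhibitors and subunits of NF-κB, chemokines, complement proteases, antigen-processing genes and defence proteins, with changes of up to 3.87 on the log2 scale. None of the 41 gene lists used here held more than 1 lower gene, and the lower genes were led by *Glycam1* and *Aldh1a1*. A log2 fold change of at least 1 was seen for 92 of the higher and 63 of the lower probe sets.

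**Figure D1:**
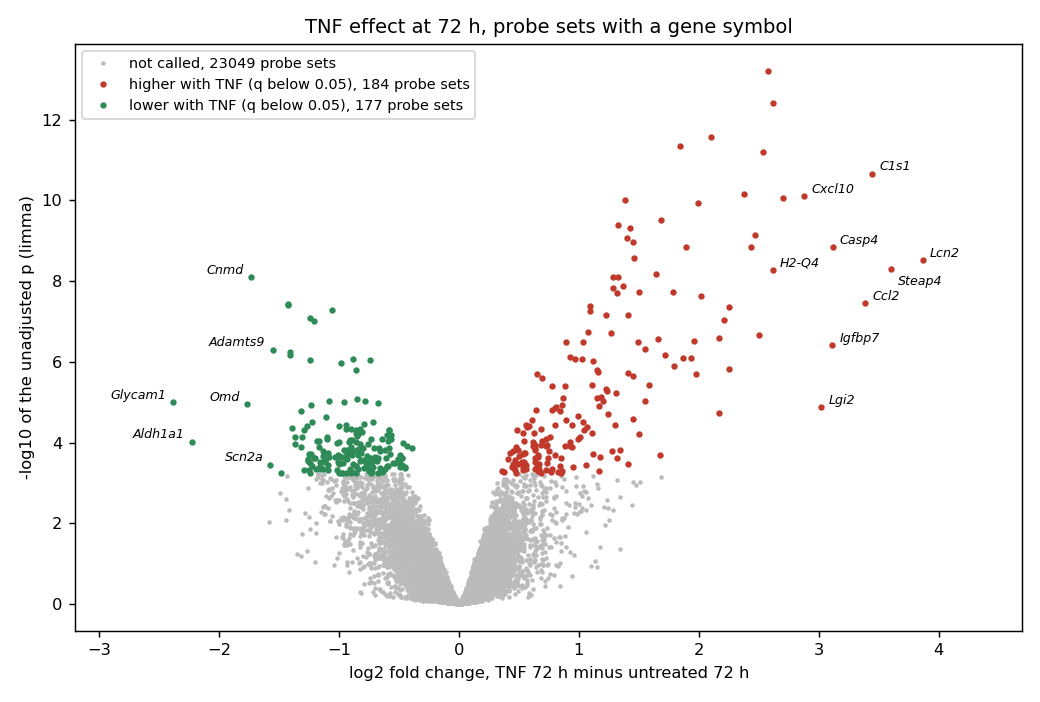
Log2 fold change (x axis, TNF 72 h minus untreated 72 h) and −log10 of limma's unadjusted p (y axis) for 23410 probe sets with a gene symbol. The 184 called higher (red) reach 3.87 for *Lcn2*, while the 177 called lower (green) reach −2.38 for *Glycam1*.

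Promoter sequences are shown for 6 of the 15 genes with the largest increase. They were chosen from the 9 that hold a match to the consensus of the κB site, to which NF-κB binds. *Steap4*, *Casp4* and *Madcam1* also hold a match and are not shown. A further promoter of *Tnfaip3* holds none and is not shown. Each sequence runs from 250 bases before to 50 bases after the start of the gene, on the gene's strand, as given by RefSeq for GRCm38.p6. Capitals mark matches on either strand to the κB consensus, and in *Cxcl10* also to the core of the interferon-stimulated response element (GAAANNGAAA). Matches that overlap run together in the capitals.
Nfkbia (IκBα, chr12:55492598-55492897, minus strand): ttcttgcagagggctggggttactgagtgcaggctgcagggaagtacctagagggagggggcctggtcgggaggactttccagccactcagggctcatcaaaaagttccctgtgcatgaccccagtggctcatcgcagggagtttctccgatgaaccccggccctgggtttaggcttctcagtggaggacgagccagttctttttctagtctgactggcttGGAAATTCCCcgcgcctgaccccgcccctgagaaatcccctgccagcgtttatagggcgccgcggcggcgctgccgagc
Nfkbie (IκBε, chr17:45555450-45555749, plus strand): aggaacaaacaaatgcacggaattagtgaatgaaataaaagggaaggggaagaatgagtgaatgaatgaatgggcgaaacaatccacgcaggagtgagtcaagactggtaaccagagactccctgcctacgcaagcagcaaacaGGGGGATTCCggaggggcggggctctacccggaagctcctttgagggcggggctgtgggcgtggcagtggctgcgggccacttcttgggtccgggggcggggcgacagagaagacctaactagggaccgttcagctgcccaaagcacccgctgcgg
Tnfaip3 (A20, chr10:19015361-19015660, minus strand): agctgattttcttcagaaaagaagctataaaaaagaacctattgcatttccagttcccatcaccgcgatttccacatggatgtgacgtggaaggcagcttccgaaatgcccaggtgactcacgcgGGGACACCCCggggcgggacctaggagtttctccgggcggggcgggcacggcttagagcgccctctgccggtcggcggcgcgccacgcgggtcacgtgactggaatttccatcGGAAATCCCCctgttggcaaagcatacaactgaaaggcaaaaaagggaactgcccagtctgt
Cxcl10 (a chemokine, chr5:92348840-92349139, minus strand): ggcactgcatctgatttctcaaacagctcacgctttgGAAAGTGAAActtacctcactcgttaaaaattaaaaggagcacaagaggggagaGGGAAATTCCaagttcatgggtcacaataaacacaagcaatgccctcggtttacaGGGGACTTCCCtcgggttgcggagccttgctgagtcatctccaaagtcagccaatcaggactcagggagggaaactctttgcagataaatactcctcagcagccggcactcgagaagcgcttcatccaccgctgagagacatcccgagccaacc
Tlr2 (a receptor for bacterial lipopeptides, chr3:83841559-83841858, minus strand): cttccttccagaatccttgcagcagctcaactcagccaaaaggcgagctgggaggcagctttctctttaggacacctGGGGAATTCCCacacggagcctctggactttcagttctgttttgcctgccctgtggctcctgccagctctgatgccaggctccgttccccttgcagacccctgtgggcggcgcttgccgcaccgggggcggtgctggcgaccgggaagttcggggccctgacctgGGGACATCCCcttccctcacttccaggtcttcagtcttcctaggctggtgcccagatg
H2-Q4 (an MHC class I heavy chain, chr17:35379367-35379666, plus strand): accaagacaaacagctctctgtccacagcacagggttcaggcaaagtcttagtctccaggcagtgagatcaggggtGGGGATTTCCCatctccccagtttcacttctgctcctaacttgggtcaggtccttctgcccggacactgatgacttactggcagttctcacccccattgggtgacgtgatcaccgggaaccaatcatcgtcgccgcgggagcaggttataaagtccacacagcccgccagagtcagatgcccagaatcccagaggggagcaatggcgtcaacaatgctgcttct

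Of the 15 genes with the largest increase, 14 had a promoter in this table and 9 of these held a κB match. *Lcn2*, *C1s1*, *Igfbp7*, *Lgi2* and *Tnfsf18* had none within these 300 bases. Over all genes called higher, 36 of 132 with a promoter held a κB match (27.3%), against 15 of 100 genes called lower (15%) and 1707 of 15562 genes measured (10.97%). For the interferon-stimulated element (GAAANNGAAA) the shares were 6.82% of genes called higher, 0 of 100 genes called lower and 3.89% of genes measured. Over all 32851 promoters of the table the shares were 8.46% for κB and 3.44% for the interferon-stimulated element. A match is a description of the letters only, and binding was not measured here.

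*Nfkbia*, the inhibitor that NF-κB induces first, had log2 signals of 12.43 and 12.47 in TNF-treated NSPs, against 9.71, 9.98 and 9.82 in untreated NSPs. Its log2 fold change was 2.62 (SE 0.16, q = 4.4e-09). *Nfkbie*, which encodes IκBε, had 10.37 and 10.29 with TNF, against 7.77, 7.81 and 7.68 without, a log2 fold change of 2.58 (SE 0.143, q = 2.14e-09). The groups stand well apart for both inhibitors, and the gap is many times the spread within either group. *Tnfaip3*, which encodes the ubiquitin-editing enzyme A20, had 9.58 and 9.77 with TNF, against 6.98, 7.24 and 7.19 without, a log2 fold change of 2.54 (SE 0.18, q = 3.79e-08).

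Of 15 measured subunits and inhibitors of NF-κB, 6 were higher, 0 were lower and 9 were not called. Over all 19938 genes, 0.873% were higher and 0.657% lower, the shares to set beside this and the later list counts. The median log2 fold change of the list was 0.53, against −0.01 over all genes. The other 3 that rose were *Relb* (1.69), *Nfkb2* (1.45), which together form the non-canonical dimer, and *Tnip1* (1.37), a partner of A20. *Bcl3*, an atypical IκB protein, had 8.81 and 8.51 with TNF, against 7.86, 7.44 and 7.68 without, and was not called (log2 fold change 1.001, q = 0.134). Upstream of NF-κB, only *Traf2* was called among 18 measured TNF receptors, adaptors and IKK genes, of which 17 were not called. *Traf2* had 9.97 and 10.08 with TNF, against 8.85, 8.97 and 8.98 without (log2 fold change 1.09, SE 0.129, q = 3.55e-05). *Birc3*, a ubiquitin ligase of the receptor complex, had a log2 fold change of 0.63 and stayed just above the threshold (q = 0.0512). Of 14 ligands of the TNF superfamily, *Tnfsf18*, which encodes the ligand of GITR, was the one called. It had 9.45 and 9.18 with TNF, against 6.96, 6.82 and 6.67 without (2.50, SE 0.327, q = 0.000146).

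**Figure D2:**
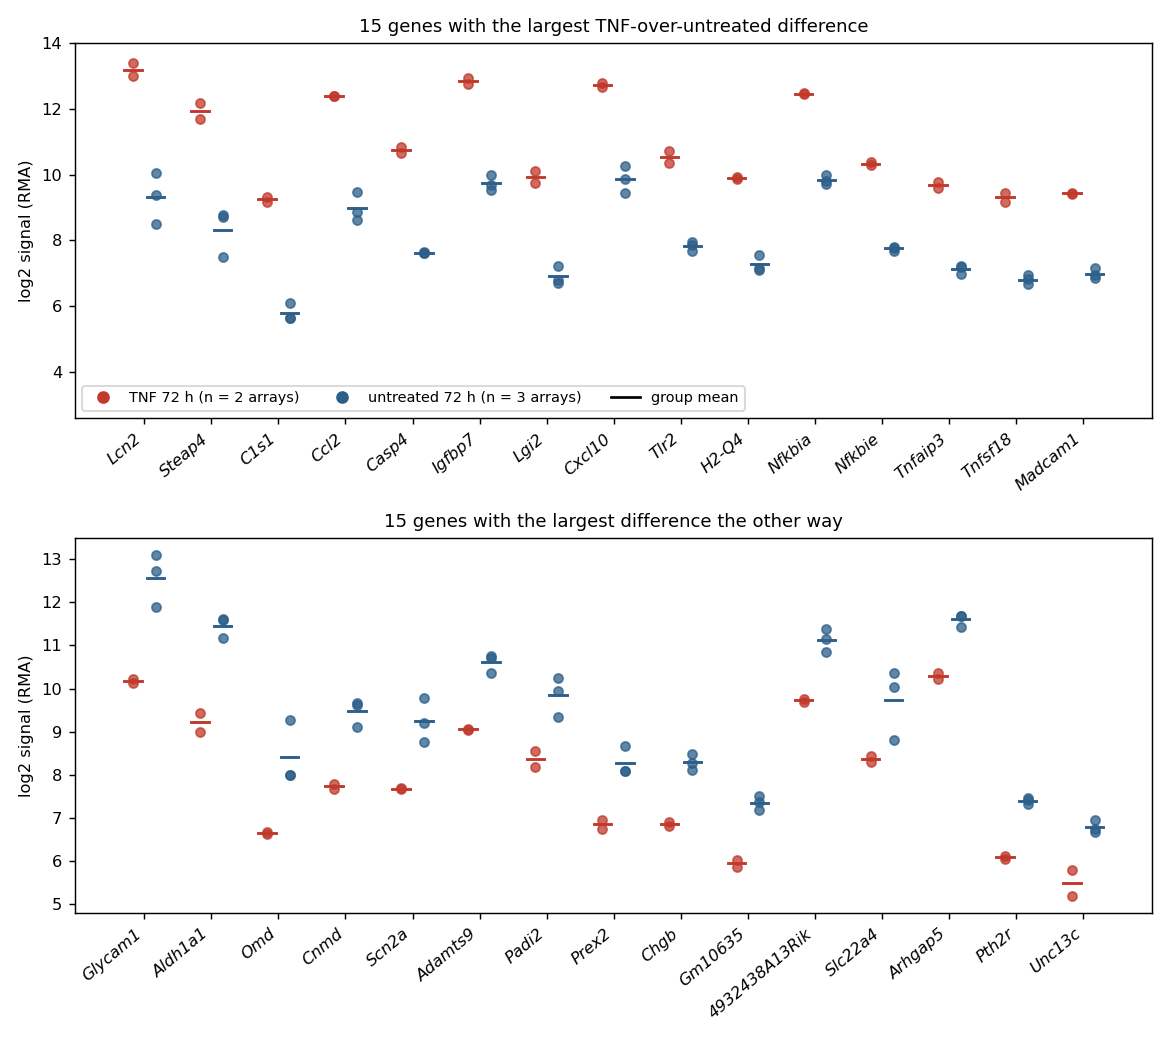
Log2 RMA signal of the 15 genes with the largest increase (top) and the 15 with the largest decrease (bottom) at 72 h, with 1 point per array (TNF red on the left, n = 2, untreated blue on the right, n = 3) and a bar at each group mean. The 2 groups do not overlap in any of these genes, which the choice of genes required.

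The defence genes held the largest change of the comparison. *Lcn2*, which encodes the iron-siderophore binding protein lipocalin 2, had 13.37 and 12.99 with TNF, against 9.39, 8.49 and 10.05 without. Its log2 fold change was 3.87 (SE 0.389, q = 4.24e-06). *Steap4*, a metalloreductase, had 12.16 and 11.69 with TNF, against 8.77, 7.49 and 8.71 without (3.60, SE 0.372, q = 6.68e-06). In both *Lcn2* and *Steap4*, replicate 2 of the untreated cells was the lowest array. *Lbp*, the lipopolysaccharide binding protein of the acute phase, had 12.86 and 12.98 with TNF, against 10.88, 10.41 and 10.72 without (2.25, SE 0.266, q = 3.72e-05). Of 19 measured acute phase and secreted defence genes, only *Lcn2* and *Lbp* were called, with a list median of 0.07. *Chil1* (1.35, q = 0.11), *Serpinb1a* (1.24, q = 0.152) and *Cp* (1.06, q = 0.162) had TNF arrays above all untreated arrays and were not called. Among 21 genes of metal handling, *Steap4* and the zinc importer *Slc39a4* (2.38, SE 0.193, q = 3.01e-07) were higher, and the list median was −0.01.

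Bacterial sensing was marked by *Tlr2*, with 10.72 and 10.35 in TNF-treated cells, against 7.68, 7.94 and 7.86 in untreated cells (2.71, SE 0.222, q = 3.04e-07). *Cd14*, a co-receptor of Toll-like receptors, had 8.77 and 8.46 with TNF, against 7.30, 6.77 and 7.12 without (1.56, SE 0.215, q = 0.000269). The other 14 of 16 measured Toll-like receptors and adaptors were not called. *Casp4* encodes the caspase that senses lipopolysaccharide inside the cell, and had 10.85 and 10.64 with TNF, against 7.61, 7.65 and 7.62 without (3.12, SE 0.3, q = 2.42e-06). The other 16 of 17 measured inflammatory caspases and death receptors were not called, although TNF arrays lay above all untreated arrays for 11 of the 17. Over all 19938 genes, TNF arrays lay above all untreated arrays for 22% and below them for 22.1%.

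Of 26 chemokines, 4 were higher and 0 were lower, against 0.873% and 0.657% of all genes, with a median of −0.03. *Ccl2*, which attracts monocytes, had 12.38 and 12.37 with TNF, against 8.63, 9.47 and 8.86 without (3.39, SE 0.395, q = 3.24e-05). *Cxcl10*, a ligand of CXCR3 on T cells, had 12.67 and 12.78 with TNF, against 9.44, 10.26 and 9.85 without (2.88, SE 0.235, q = 3.04e-07). For both, replicate 2 was the highest untreated array. *Ccl7* was higher by 2.17 (SE 0.391, q = 0.00561) and *Cxcl11* by 0.85 (SE 0.192, q = 0.03). The membrane-bound chemokine *Cx3cl1* had 10.71 and 10.83 with TNF, against 9.16, 10.29 and 9.16 without, and was not called (1.24, q = 0.121). No gene of 20 interleukins and growth cytokines was called, and their largest log2 fold change was 0.72, for *Csf1* (q = 0.122).

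The proteases C1r and C1s start the classical pathway of complement, and genes for both were higher with TNF. *C1s1*, which encodes the protease C1s, had 9.31 and 9.18 with TNF, against 5.64, 6.11 and 5.64 without (3.45, SE 0.262, q = 1.1e-07). *C1ra*, the protease that cleaves C1s, had 7.64 and 7.81 with TNF, against 6.23, 6.49 and 6.51 without (1.32, SE 0.148, q = 1.95e-05). A probe set shared by *C1ra* and its close copy *C1rb* was higher by 2.47, and which of both gave that signal cannot be told. The other 18 of 20 measured complement genes were not called, with a list median of 0.02. *Cd59a*, which protects cells from the complement pore, had 9.17 and 9.60 with TNF, against 10.75, 11.10 and 11.04 without (−1.58, SE 0.549, q = 0.229), and was not called.

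MHC class I and antigen processing had the most calls of the 41 lists, which were chosen with earlier results of these data known. Of its 19 genes, 9 were higher and 0 lower, against 0.873% and 0.657% of all genes, with a median of 0.56. *H2-Q4* had 9.86 and 9.94 with TNF, against 7.11, 7.57 and 7.16 without (2.62, SE 0.272, q = 6.84e-06). MHC class I genes are near-copies of each other, so its probes may also read its relatives, and 2 probe sets shared by *H2-D1* and *H2-K1* were higher by 2.02 and 1.96. The peptide transporter genes *Tap2* (1.29, SE 0.143, q = 1.6e-05) and *Tap1* (1.23, SE 0.149, q = 5.28e-05) rose, as did *Tapbp* (0.94) and *Tapbpl* (0.64), which load peptides. The immunoproteasome subunits *Psmb10* (1.28), *Psmb8* (1.08) and *Psmb9* (0.56) and the activator *Psme2* (0.63) were also higher. *B2m*, the light chain of MHC class I, had 13.06 and 12.93 with TNF, against 12.41, 12.50 and 12.40 without, and missed the threshold (0.56, q = 0.0524).

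Among 29 measured interferon-stimulated genes 6 were higher and 0 lower, against 0.873% and 0.657% of all genes, with a median of 0.16. *Irf1*, a transcription factor that is itself a target of NF-κB, had 10.13 and 10.08 with TNF, against 8.10, 8.20 and 8.04 without (1.995, SE 0.166, q = 3.43e-07). A second probe set of *Irf1* had a log2 fold change of 0.05 and was not called. The antiviral genes *Oasl2* (1.40, SE 0.131, q = 1.74e-06), *Usp18* (1.15), *Gbp5* (1.17), *Ifi35* (0.73) and *Rtp4* (0.66) were higher as well. *Ifit2* had a log2 fold change of −0.49 (q = 0.766).

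**Figure D3:**
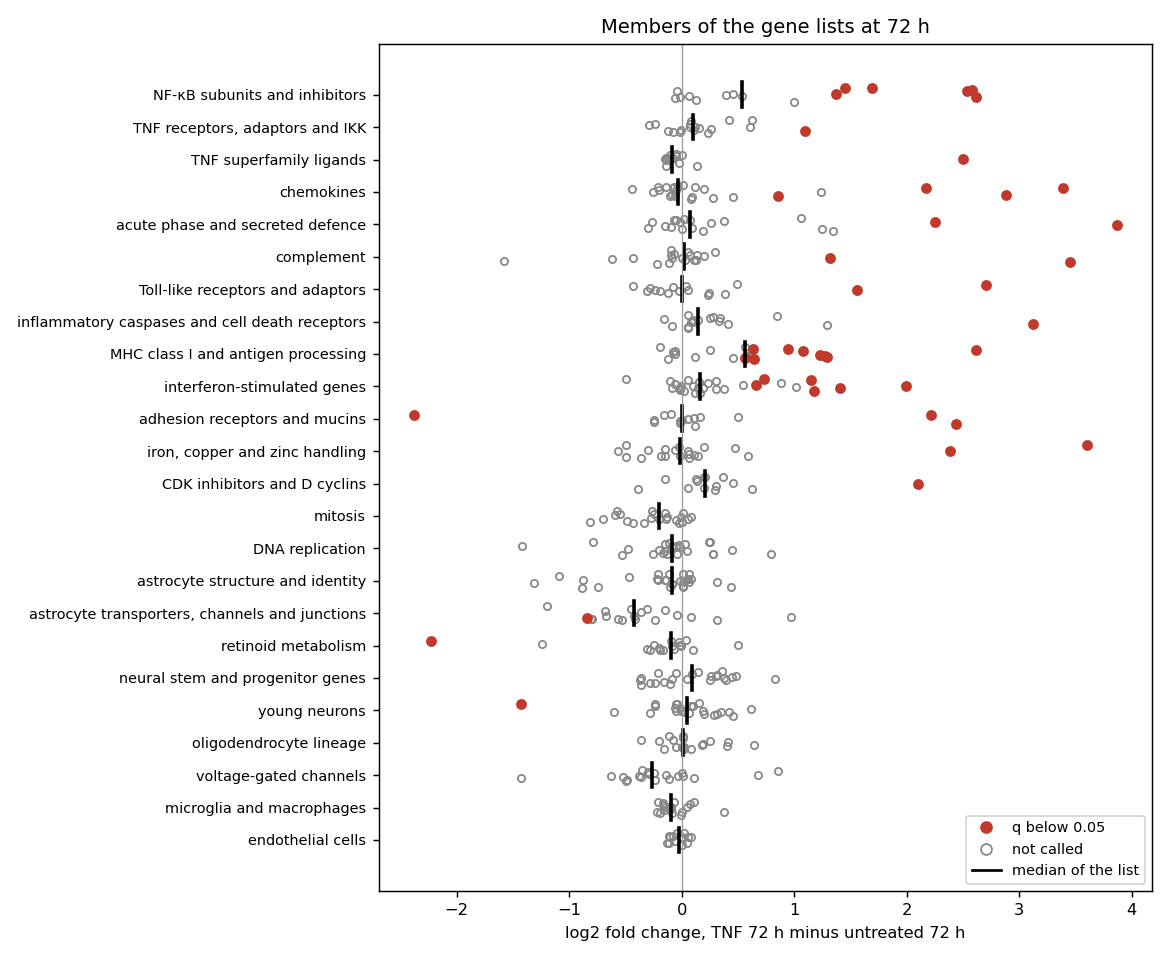
Log2 fold change at 72 h (x axis, TNF minus untreated) of the members of 24 of the 41 gene lists, 1 point per gene, filled red where the q-value was under 0.05, with a black bar at the list median. Filled points lie right of 0 in the NF-κB, chemokine, complement, MHC class I and interferon lists, and the astrocyte transporter list has its median at −0.42.

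Of 15 measured adhesion receptors and mucins, 2 were called higher, 1 was called lower and 12 were not called, and the median was −0.002. *Madcam1*, a ligand of integrins on lymphocytes, had 9.45 and 9.40 with TNF, against 6.85, 7.16 and 6.96 without (2.44, SE 0.234, q = 2.42e-06). *Vcam1* had 12.60 and 12.59 with TNF, against 10.48, 10.18 and 10.49 without (2.21, SE 0.274, q = 6.75e-05). *Glycam1*, which encodes a secreted mucin known as a ligand of L-selectin in lymph node vessels, was the lowest probe set of all. It had 10.14 and 10.23 with TNF, against 12.72, 11.88 and 13.10 without (−2.38, SE 0.409, q = 0.00339). The call of *Glycam1* was lost when either TNF array was left out (q = 0.0903 and 0.0657), while *Madcam1* and *Vcam1* kept theirs.

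Secreted and matrix factors were also among the higher genes. *Igfbp7*, which binds insulin-like growth factors, had 12.94 and 12.76 with TNF, against 9.54, 9.98 and 9.68 without (3.11, SE 0.423, q = 0.000221). *Lgi2*, a secreted protein of the LGI family, had 10.11 and 9.76 with TNF, against 6.79, 7.23 and 6.70 without (3.02, SE 0.53, q = 0.00415), and its call was lost without TNF replicate 1 (q = 0.131) or 2 (q = 0.0556). *Has2*, a hyaluronan synthase, was higher by 1.98 (SE 0.302, q = 0.000841) and the tight junction gene *Cldn1* by 2.25 (SE 0.335, q = 0.000658). In the tight junction list the scaffold gene *Tjp1* was lower by a small amount (−0.49, SE 0.117, q = 0.0399). That call was lost without untreated replicate 1 (q = 0.181), 2 (q = 0.067) or 3 (q = 0.101). *Junb* was the one immediate early gene called of 24 (1.25, SE 0.225, q = 0.00577), with a list median of 0.35. *Il6ra*, the receptor chain for interleukin 6, was higher (1.01, SE 0.203, q = 0.0152), while *Stat3* itself had 12.52 and 12.51 with TNF, against 12.17, 12.10 and 12.24 without (0.34, q = 0.153).

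The cell cycle inhibitor *Cdkn2b* (p15) had 10.76 and 10.91 with TNF, against 8.57, 8.81 and 8.83 without (2.10, SE 0.142, q = 2.29e-08), and was the one gene called of 14 CDK inhibitors and D cyclins. No gene of 23 measured mitosis genes or 25 DNA replication genes was called. The mitosis genes averaged log2 signals of 6.96 and 6.92 on the TNF arrays, against 6.90, 7.77 and 6.92 on the untreated arrays. Untreated replicate 2 therefore stood above the other 4 arrays, which lay close together. *Mki67*, a marker of dividing cells, had 6.40 and 6.43 with TNF, against 6.42, 7.91 and 6.71 without. *Top2a*, which untangles DNA in mitosis, had 6.65 and 6.53 with TNF, against 6.78, 8.29 and 6.81 without. The same array was looked at over all probe sets, cell cycle genes included. Among 242 probe sets whose untreated arrays spread over more than 1 log2 unit, replicate 2 was the farthest from the middle value in 227. Over all 23410 probe sets, replicate 2 was the farthest in 9825. Without it, 139 probe sets were higher and 78 lower, of which 130 and 63 were also called with it.

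Marker genes of other cell types were compared between the groups, since RNA levels cannot be ranked between different probe sets on these arrays. The list of 19 genes of microglia and macrophages averaged 6.53 and 6.55 on the TNF arrays, against 6.61, 6.60 and 6.60 on the untreated arrays, and *Ptprc*, *Itgam* and *Adgre1* lay between 5.45 and 5.81 on all 5 arrays. *Cd68* had the largest change of the list and went the other way. It had 8.185 and 8.65 with TNF, against 8.051, 7.876 and 8.195 without (0.38, q = 0.928), with overlap. TNF arrays lay below all untreated arrays for 10 of the 19, against 22.1% of all genes. Only 1 of the 19 had a mean probe signal above the median of all genes, so these small differences are read at low signal. This places the probe signal only and does not rank RNA levels. The list of 14 endothelial genes averaged 6.84 and 6.75 on the TNF arrays, against 6.83, 6.81 and 6.84 on the untreated arrays. None of these 2 lists' genes was called. In such bulk RNA, fewer cells of a type and less RNA of a gene per cell cannot be told apart.

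*Gfap*, the intermediate filament of astrocytes, had 12.54 and 12.78 with TNF, against 13.55, 13.34 and 13.73 without. The arrays did not overlap, yet the difference was not called (−0.88, SE 0.293, q = 0.195). *Sparcl1*, a secreted protein of astrocytes, had 11.72 and 11.75 with TNF, against 12.71, 12.94 and 12.83 without (−1.09, SE 0.338, q = 0.152). *S100b*, a calcium-binding protein, had 7.602 and 8.54 with TNF, against 8.90, 9.37 and 9.87 without (−1.31, SE 0.511, q = 0.326). These 3 were named for the largest changes in the list of astrocyte structure and identity. None of its 28 genes was called in either direction, and its median was −0.09, with a highest value of 0.44. TNF arrays lay below all untreated arrays for 11 and above them for 3, against 22.1% and 22% of all genes, and 14 overlapped. The calls of *Gfap*, *Sparcl1* and *S100b* changed with the setting. With the variance taken from the arrays of 72 h alone, which calls 1013 probe sets lower in place of 177, *Gfap* (q = 0.0213) and *Sparcl1* (q = 0.00651) passed the threshold and *S100b* did not (q = 0.0756). With the replicate number as a block, *S100b* (q = 0.0187) and *Sparcl1* (q = 0.0392) passed and *Gfap* did not (q = 0.121). With array weights, which call 1864 probe sets lower, all 3 passed (*Gfap* q = 0.000351, *Sparcl1* q = 0.000744, *S100b* q = 0.011). None of the 3 passed with any 1 untreated array left out.

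Genes for astrocyte transport and coupling had the lowest list median with −0.42. Of 19 measured, 1 was called lower and 0 higher, and TNF arrays lay below all untreated arrays for 12, where 22.1% of all genes did so. *Slc4a4*, a sodium bicarbonate cotransporter, had 11.69 and 11.54 with TNF, against 12.58, 12.29 and 12.50 without (−0.84, SE 0.186, q = 0.027), a call lost without untreated replicate 1 or 3 (q = 0.126 and 0.0815) and without either TNF array (0.217 and 0.326). *Gja1*, the gap junction protein connexin 43, had 12.29 and 12.31 with TNF, against 13.07, 12.67 and 13.18 without (−0.68, SE 0.265, q = 0.328). The glutamate transporter *Slc1a2* had 10.26 and 10.23 with TNF, against 10.83, 10.63 and 10.88 without (−0.53, SE 0.22, q = 0.373). *Slc14a1*, the urea transporter, had 9.98 and 10.14 with TNF, against 11.83, 10.10 and 11.83 without (−1.19, SE 0.462, q = 0.318). Here untreated replicate 2 lay among the TNF arrays, and without it the log2 fold change was −1.77 (q = 0.0491). *Kcnk1*, a potassium channel, was not called and had 10.70 and 10.53 with TNF, against 9.64, 9.78 and 9.53 without (0.97, SE 0.289, q = 0.13).

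No gene was called among 23 neural stem and progenitor genes (median 0.09), 18 genes of the oligodendrocyte lineage (0.01), 22 genes of the Notch pathway (0.19), 22 BMP, SMAD and ID genes (−0.05) or 20 voltage-gated channels (−0.27). TNF arrays lay below all untreated arrays for 10 channels and above for 2, against 22.1% and 22% of all genes. They lay above for 11 Notch genes and below for 2, and above for 8 progenitor genes and below for 4. For the oligodendrocyte genes these counts were 3 and 3, and for the BMP list 4 and 6. With 1 probe set counted per gene, other probe sets of the sodium channel gene *Scn2a* were called lower, as given below. *Prom1*, which encodes the progenitor marker CD133, had 7.51 and 6.89 with TNF, against 7.84, 7.55 and 7.30 without (−0.36, q = 0.767). *Cd44*, a hyaluronan receptor of astrocyte precursors, had 9.51 and 9.60 with TNF, against 9.67, 9.72 and 9.58 without (−0.10, q = 0.978). For both, the groups overlapped. The Notch ligand *Dll1* had 9.60 and 9.69 with TNF, against 9.04, 8.06 and 9.35 without (0.83, q = 0.683), and its log2 fold change was 0.45 without untreated replicate 2. *Hes5*, a target of Notch, had 9.64 and 9.44 with TNF, against 9.09, 8.997 and 9.09 without (0.48, q = 0.886), with no overlap. Of 24 genes of young neurons, *Chgb* was the one called. The 18 measured ribosomal protein genes, none called, had a median of 0.18 and TNF arrays above all untreated arrays for 12, where 22% of all genes had them above.

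Other genes were called lower. *Aldh1a1*, which makes retinoic acid, had 8.995 and 9.44 with TNF, against 11.16, 11.58 and 11.60 without (−2.23, SE 0.459, q = 0.0175), and was the one gene called of 17 in retinoid metabolism. Its q-value was 0.336 without TNF replicate 1, 0.124 without TNF replicate 2, 0.0619 without untreated replicate 2 and 0.0618 without untreated replicate 3. The glucose transporter *Slc2a1* had 11.17 and 11.27 with TNF, against 12.07, 12.17 and 12.15 without (−0.91, SE 0.217, q = 0.0429). This call was lost without untreated replicate 1 (q = 0.12), 2 (q = 0.133) or 3 (q = 0.114). The log2 fold change of *Slc2a1* was −0.86 without TNF replicate 1 and −0.96 without TNF replicate 2. *Cnmd*, a secreted inhibitor of vessel growth known from cartilage, had 7.67 and 7.80 with TNF, against 9.62, 9.12 and 9.67 without (−1.74, SE 0.185, q = 9.13e-06). *Omd*, a small leucine-rich proteoglycan, had 6.64 and 6.68 with TNF, against 7.99, 9.28 and 8.004 without (−1.77, SE 0.306, q = 0.0037). For *Omd*, untreated replicate 2 was the highest array, and without it the log2 fold change was −1.34 (q = 0.0096). The call of *Omd* was lost without TNF replicate 1 (q = 0.0904) and without TNF replicate 2 (q = 0.074). *Chgb*, a protein of secretory granules in neurons and endocrine cells, had 6.83 and 6.90 with TNF, against 8.28, 8.11 and 8.48 without (−1.43, SE 0.167, q = 3.36e-05). *Ptger3*, a receptor of prostaglandin E2, had 6.71 and 6.99 with TNF, against 7.96, 7.95 and 7.82 without (−1.06, SE 0.126, q = 4.33e-05).

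Several large genes were lower over many probe sets. *Adamts9*, a matrix protease gene of 172 kb, was called on 6 of 6 probe sets, with log2 fold changes from −1.55 to −0.83. *4932438A13Rik*, of 190 kb, was called on 12 of 19, and TNF arrays lay below untreated arrays on all 19, against 22.3% of all probe sets with a symbol. *Myo9a*, an unconventional myosin, was called on 4 of 13 and had TNF arrays below on 13. *Scn2a*, a voltage-gated sodium channel, was called on 3 of 14, from −1.57 on its lowest to −0.36 on its highest probe set. The *Scn2a* probe set of highest mean signal was not called (−0.49, q = 0.266). These probe sets of 1 gene are not independent, and 2 genes, *Dnajc3* and *Zfp788*, are listed with the same values on 2 probe sets.

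Gene span, from the first to the last base in the genome, differed between the calls. The median span was 68.8 kb for genes called lower, 22.3 kb for genes called higher and 17.7 kb for all genes. Genes were put into 5 equal classes of span. Of those with the shortest span, up to 4.34 kb, 2 of 3971 were lower (0.0504%), against 69 of 3971 with the longest, above 59.5 kb (1.74%). The share called higher was 0.655% in the shortest and 0.932% in the longest class. The longest class also had a higher mean signal than the shortest on every array. Span and signal level are therefore not separated in these shares. The mean signal of the longest minus that of the shortest class gave 1.76 and 1.74 on the TNF arrays, against 1.82, 1.82 and 1.83 on the untreated arrays, so that the groups did not overlap on this measure. At 48 h they did, with 1.74 to 1.86 with TNF, against 1.70 to 1.88 without. With the trend over span taken out of each array, 169 probe sets were lower, and 152 of these were among the 177. The part of RNA quality in these calls was not tested.

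**Figure D4:**
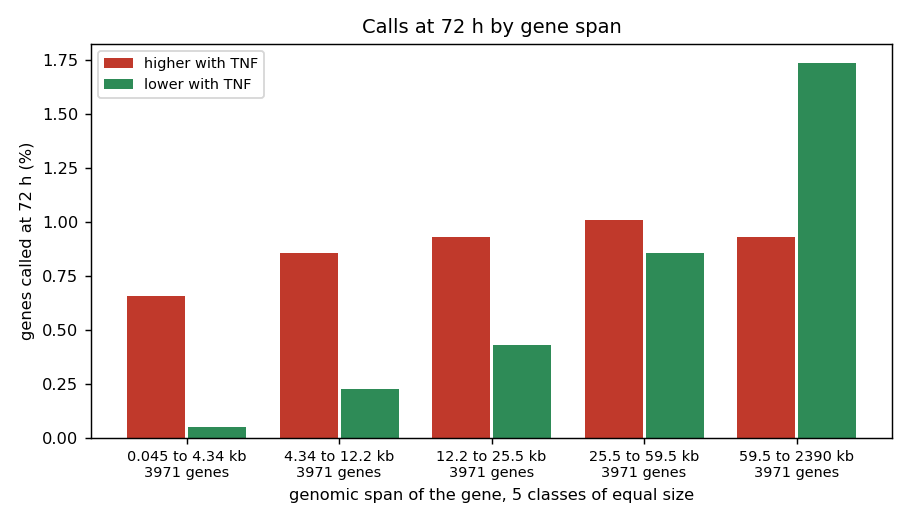
Percentage of genes called higher (red) and lower (green) with TNF at 72 h (y axis) in 5 classes of the genomic span of the gene (x axis, kb, 3971 genes each). The share called lower is 0.0504% in the shortest and 1.74% in the longest class, and the share called higher lies between 0.655% and 1.01%.

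Genes with a zinc finger symbol (symbols that start with Zfp, Zkscan or Zscan) were looked at after their values were seen. Of 370 measured, 9 were lower (2.43%, against 0.657% of all genes) and 0 were higher, with a median of −0.06. *Zfp729b* had 8.52 and 8.57 with TNF, against 9.78, 9.93 and 9.68 without (−1.25, SE 0.275, q = 0.0262). *Zfp770* had 10.98 and 10.95 with TNF, against 11.63, 11.58 and 11.66 without (−0.66, SE 0.157, q = 0.0424). Many of these genes are close copies of each other, and *Zfp729a* and *Zfp729b* may share signal. *Pcm1*, a scaffold of centriolar satellites, had 9.89 and 10.22 with TNF, against 11.35, 11.38 and 11.07 without (−1.21, SE 0.273, q = 0.0299). *Atrx*, a chromatin remodeler, had 9.40 and 9.65 with TNF, against 10.79, 10.83 and 10.44 without (−1.16, SE 0.267, q = 0.0341). *Pcm1* and *Atrx* were called lower at no earlier time and were picked with their values known.

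Finally, the effect at 72 h was set against the effects at 48 h and 24 h, which have arrays of their own. Of the 184 probe sets higher at 72 h, 143 (77.7%) were also higher at 48 h, 105 (57.1%) at 24 h and 38 (20.7%) at 6 h, while 36 were higher at none of these. Of the 177 lower probe sets, 52 (29.4%) were also lower at 48 h, 26 (14.7%) at 24 h and 4 (2.26%) at 6 h, while 124 were lower at none. These shares depend on how many probe sets each earlier comparison called. Among all 23410, the 48 h comparison called 241 higher and 92 lower, and the 24 h comparison 206 and 81. The 6 h comparison called 103 higher and only 5 lower. The 4 lower calls it shared with 72 h were thus 80% of its lower calls. No probe set called at 72 h was called in the opposite direction at another time. Among the 124, 119 carry a single symbol, and these come from 93 genes. All 119 had a log2 fold change below 0 at 48 h, with medians of −0.89 at 72 h and −0.40 at 48 h. The share of all probe sets below 0 at 48 h was not counted. They were picked for a call at 72 h and none earlier, which by itself favours a larger median at 72 h. When the effect at 72 h minus that at 48 h was tested itself, no probe set was called (0% in each direction), and 62 and 138 had an unadjusted p under 0.05 for a higher and a lower effect in limma's test. The 124 are therefore not shown to differ from 48 h. The median spread within a group was 0.0646 for TNF and 0.0912 for untreated cells at 72 h, against 0.144 for TNF and 0.136 for untreated cells at 48 h. The value of 0.0646 comes from 2 arrays and the other values from 3, so they are not on the same footing. The calls at both times used 1 estimate of the spread shared by all 26 arrays, not these values of single groups.

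**Figure D5:**
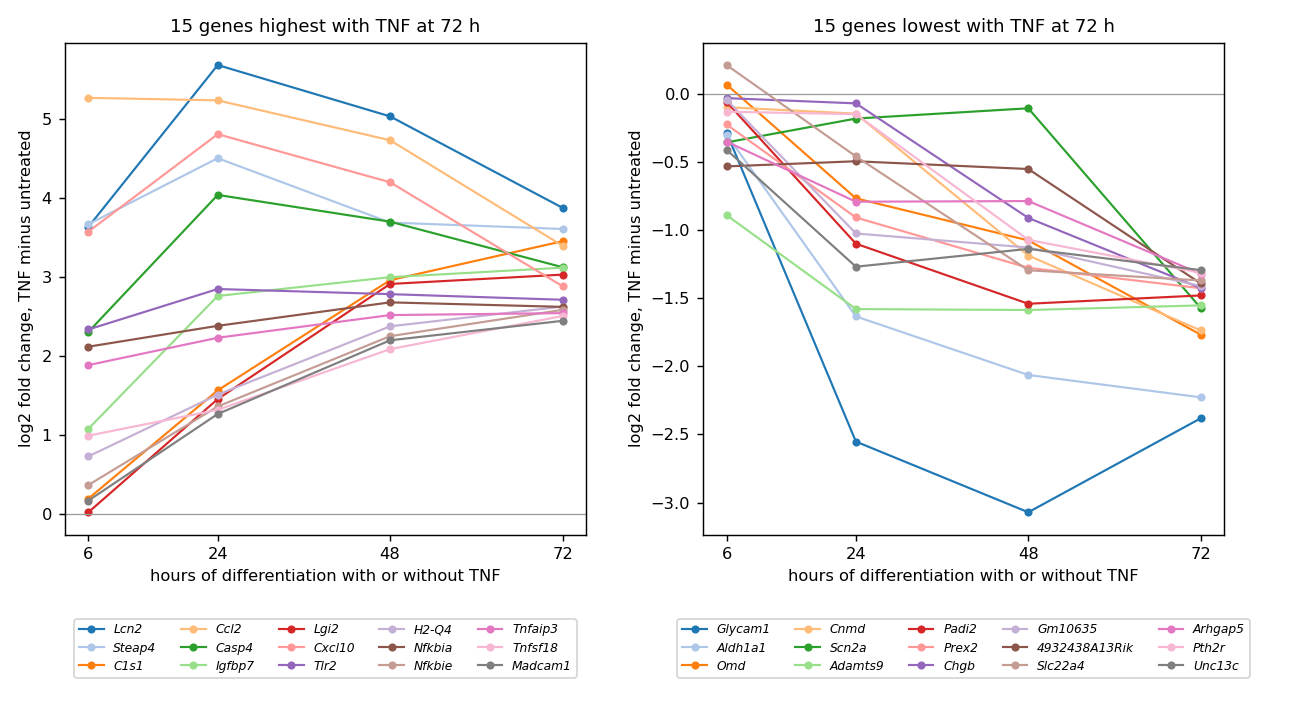
Log2 fold change (y axis, TNF minus untreated) at 6, 24, 48 and 72 h (x axis) for the 15 genes with the largest increase (left) and the 15 with the largest decrease (right) at 72 h. *Cxcl10* has 4.80 at 24 h and 2.88 at 72 h, whereas *Nfkbie* has 1.36 at 24 h and 2.58 at 72 h, and *Cnmd* has −0.14 at 24 h and −1.74 at 72 h.

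Against 24 h, 2 probe sets had a higher log2 fold change at 72 h (0.00854%) and 7 a lower one (0.0299%). *Nfkbie* had a log2 fold change of 1.36 at 24 h, 2.25 at 48 h and 2.58 at 72 h (difference of 72 h from 24 h 1.22, SE 0.192, q = 0.0179). *Slc12a7*, a potassium chloride cotransporter, had 0.46 at 24 h, 0.98 at 48 h and 1.39 at 72 h (difference 0.92, SE 0.153, q = 0.0235). *Cxcl10* went the other way with 4.80 at 24 h, 4.19 at 48 h and 2.88 at 72 h (difference −1.92, SE 0.315, q = 0.0235). Its level in untreated cells was 7.09 at 24 h and 9.85 at 72 h, and its level with TNF was 11.89 at 24 h and 12.73 at 72 h. *Mylk2*, a myosin light chain kinase, had 3.37 at 24 h, 0.58 at 48 h and 0.25 at 72 h (difference −3.13, SE 0.275, q = 1.09e-05). *Cnmd*, *Chgb* and *Ptger3* had log2 fold changes between −0.14 and −0.03 at 24 h, and their effects at 72 h were lower by 1.59 (SE 0.248, q = 0.0179), 1.36 (SE 0.224, q = 0.0235) and 1.03 (SE 0.169, q = 0.0235). The remaining 2 are probe sets shared by several glutathione S-transferase genes (*Gsta1*, *Gsta2* and others), which had 1.99 and 2.02 at 24 h and 0.03 and −0.02 at 72 h.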

How the data were processed

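Gene expression was measured on Affymetrix MoGene 1.0 ST arrays in TNF-treated and untreated NSPs. The authors deposited log2 values. Per the labels they ran the RMA method of oligo under R 3.3.1 (background correction, normalization to a common distribution, summary per probe set), with package versions not given here. Values ran from 2.30 to 14.61 with array medians of 7.54 to 7.76 and were used as deposited. The number of arrays limits the precision.

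Of 35556 probe sets, 21789 carry 1 gene symbol, 1621 several and 12146 none in the platform annotation, and 21698 were matched to RefSeq (GRCm38.p6). A linear model with 9 group means was fitted to the 26 arrays with limma 3.58.1 under R 4.3.3 (17 residual degrees of freedom), so that all groups share 1 estimate of the spread. Calls used a q-value under 0.05, computed over all probe sets by the smoother method of qvalue, rewritten here. Fold changes are TNF minus untreated. Figures were made with Python 3.11.15.

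The paired reading of replicate numbers was checked by the correlation of deviations from group means. It was 0.221 for replicate 1 and 0.0348 for replicate 2, while TNF replicate 2 had 0.16 with untreated replicate 3. The deviations of 2 TNF arrays mirror each other, so TNF replicate 2 had −0.221 with untreated replicate 1. These values are thus not separate checks and cannot decide on pairing. With only 2 pairs the arrays were not taken as paired.

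Genes were named by a rule: the 15 highest and 15 lowest called probe sets whose groups do not overlap (among those with 1 gene symbol, 1 probe set per gene), genes the paper names, 3 members per list with the largest change, and 5 per direction of each difference of effects. Other genes named were chosen after their values were seen. The members and the 41 lists (823 genes, 755 measured) were chosen with earlier results of these data known. Alternatives covered the adjustment, the arrays in the fit, normalization, variance, array weights, a replicate block, dim probe sets and leaving out single arrays, and a gene span correction was added after seeing the data. The fit was tested on simulated data with known changes.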

Additional observations from a re-analysis of the deposited data

Results flagged for a closer look

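For 7 genes with a single symbol, the TNF effect at 72 h differed from that at 24 h in limma's test of the difference (q under 0.05). A lower log2 fold change at 72 h was found for *Mylk2* (−3.13), *Cxcl10* (−1.92), *Cnmd* (−1.59), *Chgb* (−1.36) and *Ptger3* (−1.03). A higher one was found for *Nfkbie* (1.22) and *Slc12a7* (0.92). The time points differ also in their untreated cells, whose log2 signal of *Ptger3* was 7.91 at 72 h and 6.42 at 24 h, and that of *Chgb* was 8.29 at 72 h and 7.02 at 24 h. With TNF, *Ptger3* had 6.85 at 72 h and 6.39 at 24 h, and *Chgb* had 6.86 at 72 h and 6.95 at 24 h. Between 72 h and 48 h, none of these 7 differences was called, with log2 differences from −1.32 for *Cxcl10* to 0.41 for *Slc12a7*. Groups of 2 or 3 arrays are too small for a test of single outlying arrays.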

How the results depend on the processing

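Against 184 higher and 177 lower probe sets, Benjamini-Hochberg (184 and 172), cyclic loess (203 and 191), an intensity trend with a robust prior (188 and 184) and the gene span correction (199 and 169) gave similar counts. A log2 fold change of at least 1 left 92 and 63. Only the arrays compared gave 667 and 1013, array weights 1953 and 1864, the replicate block 492 and 531, and leaving out the dimmest 40 percent of probe sets 230 and 294. The 72 h arrays have less spread than most other groups. Leaving out 1 array gave 76 to 139 higher and 15 to 78 lower probe sets, with 79 and 15 without TNF replicate 1, 76 and 16 without TNF replicate 2, 109 and 40 without untreated replicate 1, 139 and 78 without untreated replicate 2, and 117 and 76 without untreated replicate 3.

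For the effect at 72 h minus that at 24 h (2 higher and 7 lower), array weights gave 29 and 47, the replicate block 3 and 12, the gene span correction 3 and 8, only the arrays compared 2 and 4, no dim probe sets 2 and 4, and a log2 difference of at least 1 gave 1 and 7. Leaving out 1 array gave 0 to 2 higher and 1 to 6 lower. The difference from 48 h gave 0 calls in every setting.

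Of the named calls, 27 of 35 higher and 6 of 20 lower probe sets were kept in every one of the 14 alternatives that gave them a value. Of these, *C1s1*, *C1ra*, *Prex2*, *Gm10635* and *Ptger3* had none without the dimmest 40 percent, where they were not among the probe sets tested. The higher calls lost in at least 1 were *Lgi2*, *Ccl7*, *Psmb10*, *Junb*, *Gbp5*, *Il6ra*, *Igf1r* and *Bcl2l1*. The lower calls so kept were *Adamts9* (−1.55), *Cnmd*, *Chgb*, *Prex2*, *Gm10635* and *Ptger3*. *Id3*, with a log2 fold change of 0.011, had −0.015 with cyclic loess and −0.037 to 0.098 with 1 array left out. *Socs3*, with −0.027, had −0.199 to 0.126 with 1 array left out. The cause of these differences was not tested. As 72 h has only 2 pairs, the block is no evidence of pairing.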
